A study of Mus musculus with 10 samples.

Results

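Tubulin isotype genes were followed in RNA of epididymal white adipose tissue (eWAT), the fat pad along the epididymis, of 10 mice. They were selected by gene symbol: every non-control probe named *Tuba1a*, *Tuba1b*, *Tuba1c*, *Tuba4a*, *Tubb2a*, *Tubb2b*, *Tubb3*, *Tubb5*, *Tubb6* or *Tubg1* was used, which gave 10 genes of 34797 gene names on the array and 14 probes. All 10 mice formed a single group. They were adult male mice of the C57BL/6J strain field (C57BL/6JOlaHsd in the protocol), started at 9 weeks of age, that received a low fat diet for 3 weeks and then a high fat diet for 12 weeks at 29°C. Each then received the iron chelator desferrioxamine (DFO) by injection, 100 mg/kg on each of 5 days, and was killed on day 6 after 2 h without food. The RNA of a mouse carried the dye Cy5 and was set on 1 array against a Cy3-labelled pool of the wider study, to which these mice and control mice had contributed. No control mice and no dye-swapped arrays were analysed here, so no value below is an effect of DFO, and no ratio was tested against 0. A log2 ratio is the log2 of mouse over pool, where 1 unit is a doubling, and mice are named by the number in their labels.

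Microtubules are hollow filaments built from pairs of an alpha and a beta tubulin. Each kind is encoded by several genes, the isotypes, whose proteins are much alike and whose use differs between cell types. Gamma tubulin, encoded by *Tubg1*, is not part of the filament wall but starts its growth at the centrosome. *Tuba1a* and *Tubb3* are best known from neurons, *Tuba1b* and *Tubb5* from most cells, and dividing cells need tubulin for the spindle. Fat tissue is a mixture of adipocytes with macrophages, vessel cells and others, and in such bulk tissue fewer cells of a type cannot be told apart from less RNA per cell.

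All 14 probes were well above background in both dyes on all 10 arrays, with no spot marked as uneven or saturated. *Tuba1a*, *Tuba1b*, *Tuba1c* and *Tubb2b* had 2 probes each and the other 6 genes had 1. In the annotation of the array, on the mouse build mm9, the *Tuba1a* probe 1 is placed at chr15:98780278-98780293, an interval of 16 bases for a probe of 60, and probe 2 at chr15:98780266-98780325, both on the minus strand. *Tuba1b* has probes at chr15:98761923-98761982 and chr15:98762319-98762378 on the minus strand, and *Tuba1c* at chr15:98868477-98868536 and chr15:98868488-98868547 on the plus strand. *Tuba4a* is measured at chr1:75212307-75212366, *Tubb2a* at chr13:34166116-34166145, *Tubb2b* at chr13:34219092-34219151 and chr13:34219061-34219120, and *Tubb5* at chr17:35971872-35971931, all on the minus strand. The *Tubb3* probe lies at chr8:125945850-125945909 and the *Tubg1* probe at chr11:100987464-100987523, on the plus strand. No gene models of mm9 were used here, so exons and untranslated regions were not assigned.

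Because isotype genes are alike in their coding parts, the probe letters matter for which gene a spot reads. Stretches of the paired probes are shown first, 5′ to 3′. For *Tuba1a* and *Tubb2b* the capitals mark the longest run that both probes of the gene share, and for *Tuba1c* the base by which they differ. In the *Tubb3* stretch the capitals mark AATAAA, the usual polyadenylation signal. It also stands, without capitals, in both *Tuba1c* stretches, and *Tuba1a* probe 2 holds it outside the stretch shown.
Tuba1a probe 1, bases 31 to 60: attttgacagagacCCCAAGCTGCCCAttt
Tuba1a probe 2, bases 1 to 30: agaCCCAAGCTGCCCActtcactgatgggt
Tuba1c probe 1, bases 31 to 60: aaactgtcaataaaggtgtttccGttgtaa
Tuba1c probe 2, bases 20 to 49: aaactgtcaataaaggtgtttccAttgtaa
Tubb2b probe 1, bases 31 to 60: tGGCTAAAATCACATAAACCTTTGTGTCCT
Tubb2b probe 2, bases 1 to 30: GGCTAAAATCACATAAACCTTTGTGTCCTa
Tubb3 probe 1, bases 31 to 60: acttAATAAAgttactgctgtctgtcagat
Tuba4a probe 1, whole: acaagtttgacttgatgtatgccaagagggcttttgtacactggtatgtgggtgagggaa
Tubg1 probe 1, whole: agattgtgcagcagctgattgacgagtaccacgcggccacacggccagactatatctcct

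The *Tuba1c* probes overlap by 49 bases with 1 difference, written G54A with positions counted from the 5′ end of probe 1, and the *Tubb2b* probes share 29 bases. The *Tuba1c* pair therefore reads nearly the same stretch of RNA, and the *Tubb2b* pair stretches that overlap only in part. The *Tuba1a* probes share a run of 13 bases. The *Tuba4a* and *Tubg1* probes and *Tubb2b* probe 2 each have 1 reading frame without a stop codon, and the *Tubb3* probe has 2. Between probes of different members, the longest shared run over 87 pairs was 10 bases, between *Tuba1b* probe 1 and *Tuba1c* probe 2, and the best overlap without gaps held at most 26 identical bases of 60. Matches to transcripts of other genes were not analysed here.

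*Tuba1a*, an alpha tubulin, had one of the widest ranges of the family, 4.72-fold from the lowest to the highest mouse. The mean of its probes was a log2 ratio of -0.16 in mouse 1, -0.62 in mouse 2, 0.20 in mouse 3, -1.79 in mouse 4, -1.50 in mouse 5, -1.05 in mouse 6, -1.91 in mouse 7, -0.08 in mouse 8, 0.33 in mouse 9 and, for mouse 10, 0.05. The 4 lowest values were those of mice 4 to 7, and they did not overlap with the other mice. Before normalization, the Cy5 signal of probe 1 went from 22390 in mouse 4 to 88680 in mouse 8. At that stage both sets of mice overlapped, with 44762.2 in mouse 6 and 34978.5 in mouse 3. Over the 10 mice the log2 ratio of *Tuba1a* was -0.65 ± 0.85 (SD, n = 10). The sign of a mean against the pool depended on the scaling: 7 of the 10 members had a mean below 0 with loess and all 7 a mean above 0 with median centring (0.08 for *Tuba1a*), so differences between mice are described here rather than levels.

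**Figure D1:**
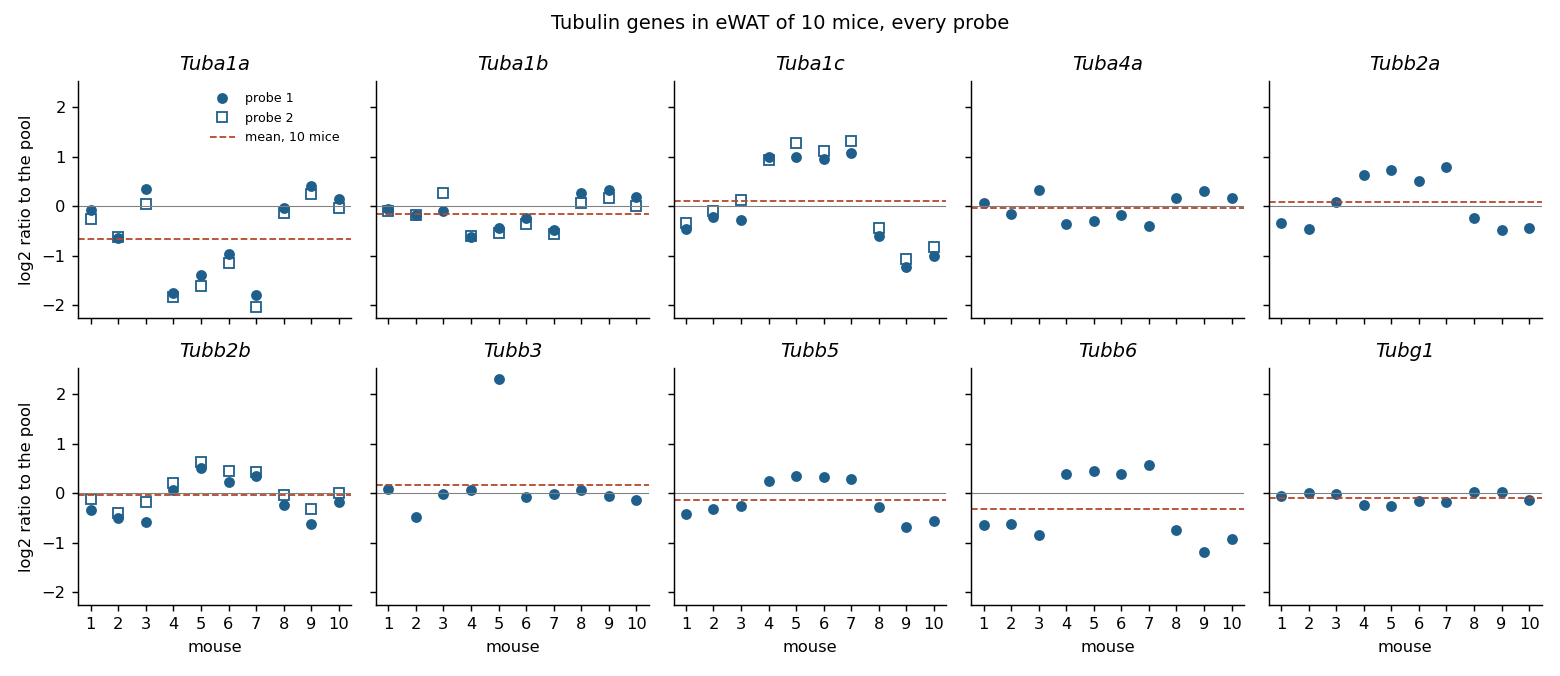
Log2 ratio of mouse over pool (vertical axis) for each tubulin gene in mice 1 to 10 (horizontal axis). Filled circles are probe 1, open squares probe 2, and the dashed line is the mean of the gene over 10 mice. In mice 4 to 7 *Tuba1a* lay at -1.05 and below and *Tuba1c* at 0.97 and above, and *Tubb3* was high in mouse 5 alone.

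The other alpha tubulin *Tuba1c* ran the other way. Its log2 ratio was -0.40 in mouse 1, -0.15 in mouse 2, -0.07 in mouse 3, 0.97 in mouse 4, 1.14 in mouse 5, 1.04 in mouse 6, 1.20 in mouse 7, -0.52 in mouse 8, -1.15 in mouse 9 and, for mouse 10, -0.91. Here mice 4 to 7 held the 4 highest values, and the range was 5.11-fold. The mean was 0.11 ± 0.90 (SD, n = 10). *Tuba1b* went from -0.61 to 0.25 with a median of -0.12, and *Tuba4a* from -0.40 to 0.32 with a median of -0.05. Both had their 4 lowest values in mice 4 to 7, as *Tuba1a* had, over smaller ranges of 1.81-fold and 1.65-fold. For *Tuba4a* the margin was narrow, with -0.17 in mouse 6 against -0.16 in mouse 2.

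Among the beta tubulins, *Tubb6* had a log2 ratio between 0.38 and 0.58 in mice 4 to 7 and between -1.18 and -0.63 in the other 6 mice. *Tubb2a* lay between 0.51 and 0.79 in mice 4 to 7 and between -0.47 and 0.09 in the others. For *Tubb5* these ranges were 0.24 to 0.35 and -0.68 to -0.26. *Tubb2b* lay between 0.14 and 0.57 in mice 4 to 7 and between -0.47 and -0.08 elsewhere. These 4 beta tubulins therefore had their 4 highest values in the mice that were lowest for *Tuba1a*. *Tubg1*, the gamma tubulin, kept within -0.25 and 0.02, a range of 1.21-fold, and its 4 lowest values were again in mice 4 to 7. The margin was narrow here too, with -0.16 in mouse 6 against -0.13 in mouse 10.

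Counted by probe, 6 of the 14 member probes had their 4 lowest values in mice 4 to 7, against 21.3% of 27718 expressed probes, and 7 had their 4 highest values there, against 17.9%. An expressed probe is one with Cy5 well above background on at least 5 arrays. Mice 4 to 7 were named after values had been seen, are not a group of the study, and were not tested against the others. The order was checked under each scaling. It was kept for *Tuba1a*, *Tuba1c*, *Tubb2a*, *Tubb2b*, *Tubb5* and *Tubb6*, while for *Tuba1b*, *Tuba4a* and *Tubg1* it was lost with median centring in place of loess and in the deposited normalized values. With median centring the lowest mouse was mouse 3 for all 3 of these genes.

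The slides give a comparison within a batch. The arrays lay on 5 slides of 2, each with its own scan, and 2 slides carried one of mice 4 to 7 next to another mouse. On the slide with mice 3 and 4, *Tuba1a* was 0.20 and -1.79, *Tuba1c* -0.07 and 0.97, and *Tubb6* -0.84 and 0.38. On the slide with mice 7 and 8, *Tuba1a* was -1.91 and -0.08, *Tuba1c* 1.20 and -0.52, and *Tubb6* 0.58 and -0.74. The opposite course of these genes was thus measured between arrays of the same slide. In limma's moderated F test of slide over all expressed probes, no probe passed an adjusted p of 0.05 (0% of 27718), with 1136 at an unadjusted p under 0.05. For the 14 member probes the lowest adjusted p was 0.697, and 5 had an unadjusted p under 0.05.

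*Tubb3*, the beta tubulin best known as a marker of neurons, followed neither course. Its log2 ratio was 0.09 in mouse 1, -0.47 in mouse 2, -0.02 in mouse 3, 0.06 in mouse 4, 2.31 in mouse 5, -0.08 in mouse 6, -0.02 in mouse 7, 0.06 in mouse 8, -0.06 in mouse 9 and, for mouse 10, -0.13. Mouse 5 stood 2.22 above the next mouse, and without it the SD fell from 0.77 to 0.17. The difference is in the scanned spot. The Cy5 signal was 914 in mouse 5 and between 71.6 and 142 in the other mice, over a local background of 36 to 45, while the Cy3 signal of the pool was 140 in mouse 5 and 84.1 to 124 elsewhere. The spot carried no outlier flag. The Schwann cell and nerve list averaged a log2 ratio of 0.06 in mouse 5 and lay between 0.01 and 0.28 over mice 1, 2, 3, 8, 9 and 10. With 1 probe and 1 spot per array, no second reading of *Tubb3* was at hand, and what set mouse 5 apart was not tested.

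**Figure D2:**
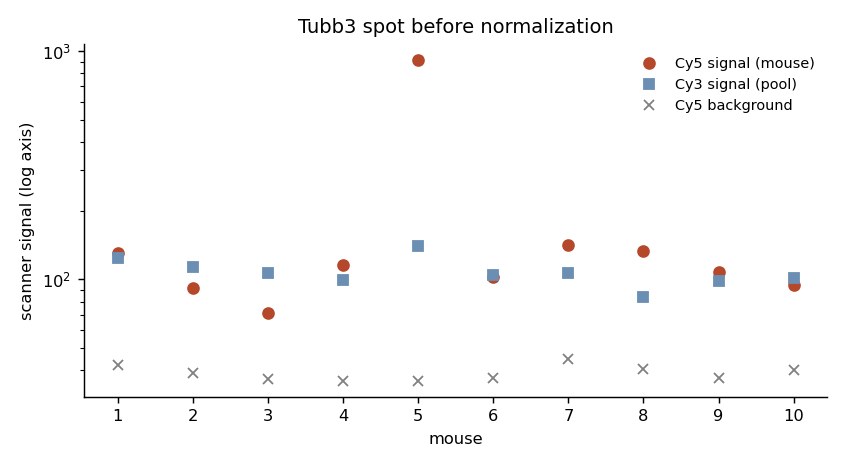
Scanner signal of the *Tubb3* spot (log axis) in each of 10 mice, with Cy5 of the mouse, Cy3 of the pool and the local Cy5 background. In mouse 5 the Cy5 signal was 914, and in the other mice it was at most 142.

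Genes with 2 probes allow a check of single spots. The probes of *Tuba1a* put the 10 mice in the same order (Pearson's r 0.994, Spearman's rho 1.00 over 10 mice, as a description), with probe 1 higher by 0.17 ± 0.09 (SD, n = 10). For *Tuba1c* r was 0.992 and for *Tubb2b* 0.977, where the probes overlap. *Tuba1b*, whose probes lie apart from each other, had an r of 0.877, and its probes differed most in mouse 3, by 0.35. The same 4 mice were lowest or highest in both probes of each of these genes.

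**Figure D3:**
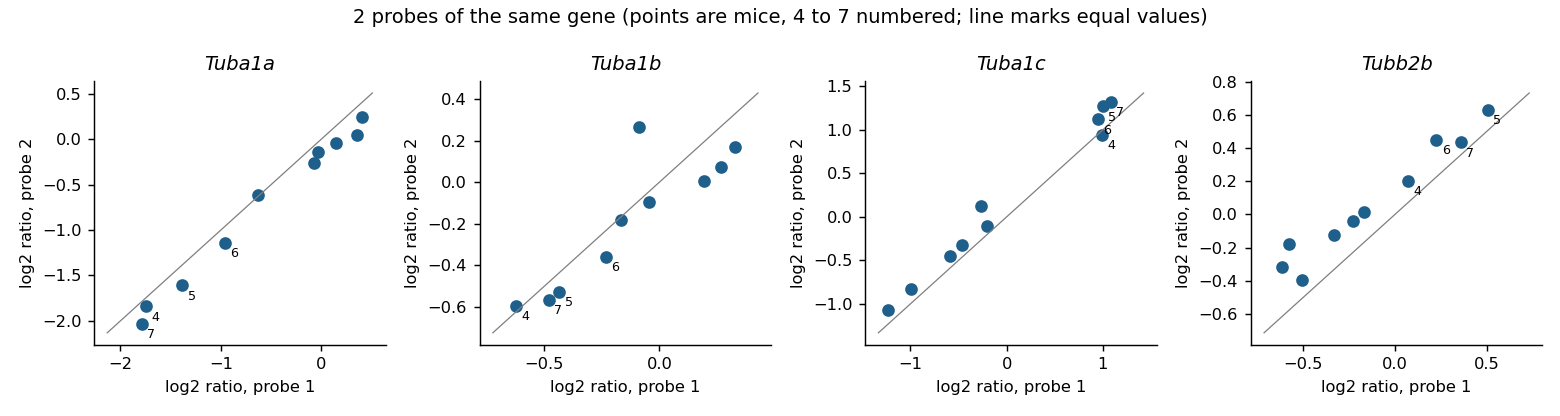
Log2 ratio of probe 2 (vertical axis) against probe 1 (horizontal axis) of the same gene for *Tuba1a*, *Tuba1b*, *Tuba1c* and *Tubb2b*; each point is a mouse, mice 4 to 7 are numbered and the line marks equal values. Mice 4 to 7 lie at the low end for *Tuba1a* and *Tuba1b* and at the high end for *Tuba1c* and *Tubb2b*.

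Whether the tubulins varied more in the Cy5 of the mice than in the Cy3 of the pool was tested. The same pool was on every array, but in some member probes its normalized Cy3 level went with the order of the mice. For 2 of the 14 member probes the 4 highest Cy3 levels were those in mice 4 to 7. The share of all probes with this order in Cy3 is not given here, so whether it is particular to tubulins was not tested. These levels are after normalization, computed from the average of both dyes and the log ratio of each spot. The log2 Cy3 level of *Tuba1a* probe 1 was 15.71 to 15.84 in mice 4 to 7 and 15.37 to 15.70 in the others. *Tuba1b* probe 1 had 16.28 to 16.37 against 16.09 to 16.20. In the scanned Cy3 signal before normalization, *Tuba1a* probe 1 kept this order, with 37589.0 in mouse 6 against 36743.7 in mouse 1. *Tuba1b* probe 1 did not, with 53195.2 in mouse 4 against 65347.4 in mouse 3. What moved the pool's level was not tested. In the normalized log2 Cy5 level, *Tuba1a* probe 1 was still lowest in mice 4 to 7 (13.97 to 14.75 against 15.08 to 15.79). *Tuba1b* probe 1 overlapped there (15.75 to 16.07 against 16.03 to 16.42). Log2 Cy5 varied more than log2 Cy3 in all 14 member probes (Pitman-Morgan test for paired variances, two-sided, Benjamini-Hochberg adjusted over 25049 probes). The same was called for 59.8% of all probes tested, so being called is common, and Cy5 holds 10 mice where Cy3 holds 1 pool. The size differed within the family. The SD of *Tuba1c* was 0.88 in Cy5 and 0.04 in Cy3 for probe 1 and 0.92 and 0.07 for probe 2. *Tubb6* had 0.70 against 0.04, *Tuba1a* 0.71 against 0.16 and *Tubb2a* 0.58 against 0.07. *Tubg1* had the lowest SD in Cy5, at 0.13 against 0.06 (adjusted p = 0.0279), and *Tuba1b* probe 1 the lowest log2 of the SD ratio, 1.07 (0.22 against 0.11), next to 1.17 for *Tubg1*. The median log2 of the SD ratio was 2.33 over member probes and 1.31 over all tested probes. Without mouse 5 *Tubb3* was no longer called (adjusted p = 0.137), and *Tubg1* was not called without mouse 4, 5 or 8 (adjusted p = 0.0532, 0.0916 and 0.0661). With slide as a block, 11 member probes were called (41.2% of all probes), without *Tuba1b* probe 1, *Tubb2b* probe 1 and *Tubg1*. With median centring 10 were called (40.4% of all probes), without both *Tuba1b* probes (adjusted p = 0.111 and 0.364), *Tuba4a* (0.997) and *Tubg1* (0.554). Without normalization between arrays, 7 were called (18.7% of all probes), and then neither probe of *Tuba1a* was (adjusted p = 0.0827 and 0.121).

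**Figure D4:**
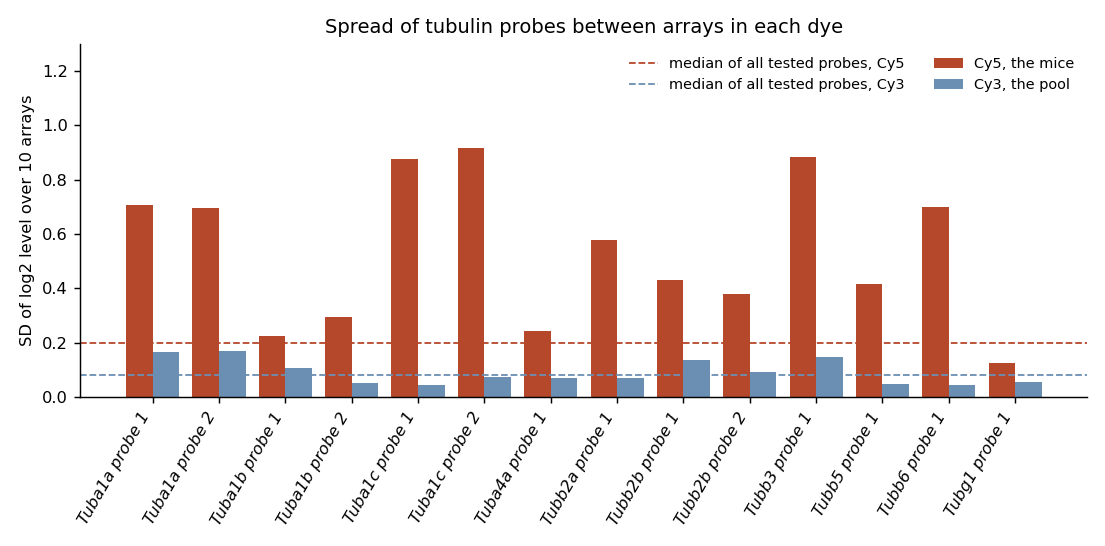
SD of the log2 level over 10 arrays (vertical axis, from 0) for each tubulin probe, in Cy5 (the mice) and Cy3 (the pool), with dashed lines at the median SD of all tested probes in each dye. Both *Tuba1c* probes and *Tubb3* reach 0.88 or more in Cy5, and *Tubg1* is lowest at 0.13.

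Marker lists of cell types moved with the same mice. The 8 adipocyte genes, all expressed, had a mean log2 ratio of -2.42 to -1.36 in mice 4 to 7 and -0.16 to 0.61 in the others. The 10 macrophage genes, all expressed, had 0.80 to 1.10 against -1.27 to -0.14, and 11 of 12 cycling cell genes were expressed, with 0.48 to 0.99 against -0.94 to -0.16. Endothelium (-0.93 to -0.60 against -0.03 to 0.27), smooth muscle and pericyte (-1.29 to -1.01 against -0.24 to 0.86), mesothelium (-1.47 to -1.04 against -0.53 to 0.28) and blood (-1.72 to -1.11 against -0.61 to 0.50) were lower in mice 4 to 7. By gene, all 8 adipocyte and all 8 endothelium genes had their 4 lowest values in mice 4 to 7. So had 6 of 7 smooth muscle and pericyte genes, 5 of 8 mesothelium genes and 5 of 6 blood genes. All 10 macrophage and 11 expressed cycling cell genes had their 4 highest values there. Of all expressed probes, 21.3% had their 4 lowest values in mice 4 to 7 and 17.9% their 4 highest. The list means of lymphocytes (-0.40 to -0.32 against 0.02 to 0.24), motile cilia (-0.80 to -0.52 against -0.44 to 1.06) and epididymis (-0.09 to 0.10 against 0.21 to 0.76) were also lower there, but by gene this held for only 3 of 6, 1 of 4 and 1 of 2 expressed genes. The fibroblast and progenitor (-0.20 to 0.12 against -0.39 to 0.08), neutrophil, sperm, and Schwann cell and nerve lists overlapped between both sets of mice. By gene, 3 of 8 fibroblast and progenitor genes had their 4 highest values in mice 4 to 7 and 2 their 4 lowest. For Schwann cell and nerve genes these counts were 1 and 2 of 8. *Tuba1a*, *Tuba1b*, *Tuba4a* and *Tubg1* thus ran with all the lists lower in mice 4 to 7, not with the adipocyte list alone. *Tuba1c*, *Tubb2a*, *Tubb2b*, *Tubb5* and *Tubb6* ran with the macrophage and cycling cell lists. For *Tuba1b*, *Tuba4a* and *Tubg1* this order was lost with median centring and in the deposited normalized values. The part of cell content in the tubulin values was not tested.

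**Figure D5:**
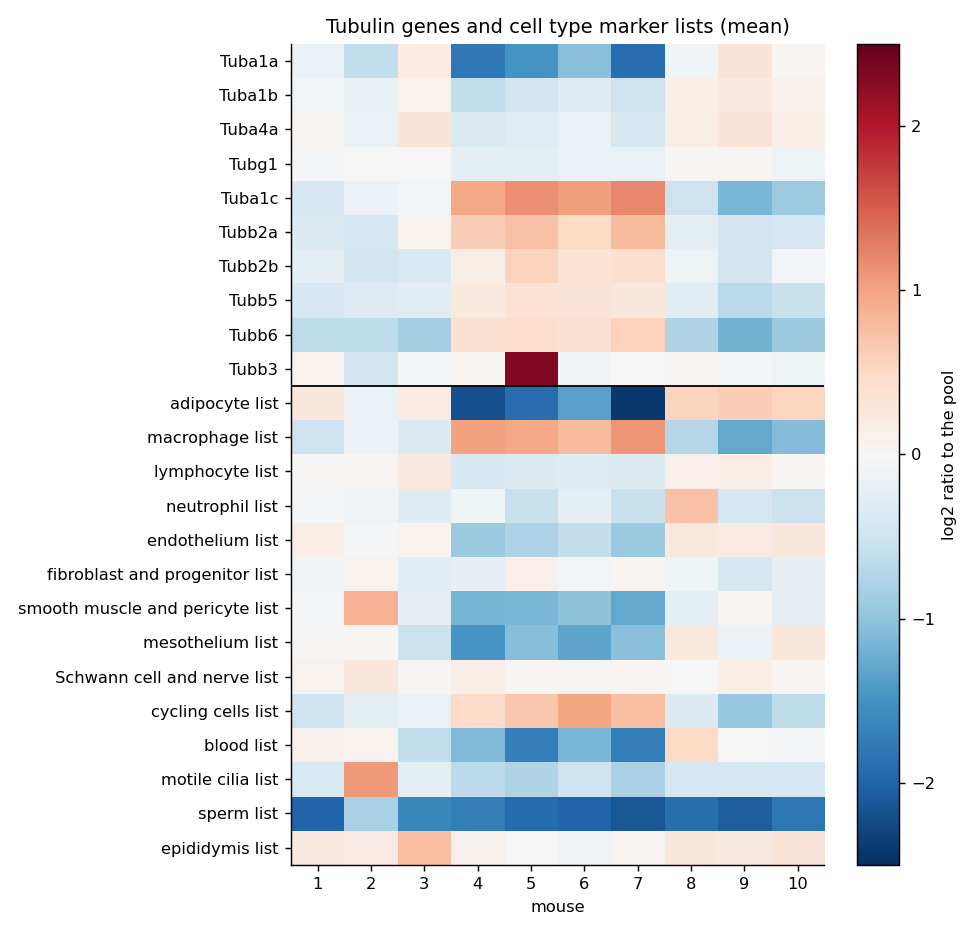
Log2 ratio of mouse over pool (colour) for the tubulin genes, upper block, and the mean of each cell type marker list, lower block, in mice 1 to 10. Mice 4 to 7 are blue for *Tuba1a* and the adipocyte list and red for *Tuba1c* and the macrophage list.

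Since the mice fell apart in this way, relations between members were also described over mice 1, 2, 3, 8, 9 and 10 alone. Over these 6 mice r with *Tuba1a* was 0.982 for *Tuba4a*, 0.873 for *Tuba1b* and -0.821 for *Tubb6*. It was -0.547 for *Tuba1c*, -0.476 for *Tubb5*, 0.307 for *Tubb2a*, 0.045 for *Tubb2b* and -0.014 for *Tubg1*. For *Tubb3* r was 0.641 with a rho of 0.029. *Tuba1c* and *Tubb5* had an r of 0.914 with each other. These are descriptions of 6 points on arrays that share the pool, with no p. With loess, *Tuba4a* and *Tuba1b* still ran with *Tuba1a* among these mice and *Tubb6* against it. The r was under 0.4 in size for *Tubb2a*, *Tubb2b* and *Tubg1*. The r of *Tuba4a* and *Tuba1b* with *Tuba1a* is not given here under another scaling, and their own values depended on the scaling. Over 10 mice, their values with median centring had an r of only 0.286 and 0.423 with those by loess. For the log ratio of the scanner software this r was 0.986 and 0.991, and for the deposited normalized values 0.899 and 0.824. Mouse 3 was highest for *Tuba4a* with loess and lowest with median centring.

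The genes whose order over mice was most like that of *Tuba1a* (highest r with its brighter probe over 10 mice) were *Tmem120a*, *Cebpa*, *Phldb1*, *Slc25a25*, *Slc24a3* and *Slc1a5*. *Cebpa* encodes a transcription factor of adipocyte differentiation, *Slc25a25* a mitochondrial carrier and *Slc1a5* a glutamine transporter. For *Tmem120a* r was 0.996 over 10 mice and 0.978 over the 6, and for *Cebpa* 0.995 and 0.993. An r above 0.9 over 10 mice was common, at 9.56% of expressed probes.

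The remaining tubulin genes and the proteins that handle tubulin were taken from 7 lists with 87 genes, of which 78 were expressed. Of the 75 that were tested, 50 (66.7%) varied more in Cy5 than in Cy3, near the 59.8% of all probes. Over the expressed genes, 15 (19.2%) had their 4 lowest values in mice 4 to 7, against 21.3% of all expressed probes, and 21 (26.9%) their 4 highest, against 17.9%. The counts of each list below are to be read against these shares of all probes. They are those with loess, and the order of list genes, markers included, is not given here under another scaling. Of the other tubulin genes 7 of 10 were expressed. *Tubb4a* lay between -0.37 and 0.67 with its 4 highest values in mice 4 to 7, and *Tubb4b* between -0.61 and 0.06 with its 4 lowest values there, so isotypes outside the members also ran both ways. *Tuba3b* and *Tuba8* were not called (adjusted p = 0.470 and 0.418).

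New tubulin is folded by the chaperonin CCT with prefoldin and paired by the tubulin cofactors. Of 15 CCT and prefoldin genes 11 (73.3%, against 59.8% of all probes) varied more in Cy5. In mice 4 to 7, 7 of the 15 had their 4 highest values (46.7%, against 17.9%) and none their 4 lowest (against 21.3%). *Cct3* lay between -0.21 and 0.40 and *Cct4* between -0.72 and 0.05, and *Tcp1* and *Cct2* were also called. Of 8 cofactor genes 4 were called, and 4 had their 4 highest values in mice 4 to 7. *Tbca* lay between -0.34 and 0.40 and *Tbcb* between -0.35 and 0.49. *Tbcc* was called and *Tbcd* was not (adjusted p = 0.207). These ranges were smaller than those of *Tuba1a*, *Tuba1c* and *Tubb6*.

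Of 9 genes of the gamma tubulin ring complex, the partner of *Tubg1*, 5 were called. *Tubgcp4* lay between -0.20 and 0.61 and was highest in mice 4 to 7, *Tubgcp3* was called, and *Tubgcp2* and *Tubgcp5* were not (adjusted p = 0.267 and 0.206). Of 17 microtubule-associated proteins 15 were expressed and 10 of 14 tested were called, with 5 lowest and 2 highest in mice 4 to 7. *Map1a* and *Map4* were among the lowest there, *Map1s* among the highest, and *Map1b* was not called (adjusted p = 0.249). *Stmn1*, a stathmin that binds tubulin pairs, ranged from -1.07 in mouse 9 to 0.84 in mouse 6, while *Stmn2* went from -0.66 in mouse 4 to 0.64 in mouse 1. In the list of stathmins and severing enzymes 8 of 9 tested genes were called, *Stmn4* among them, and *Stmn3* was too dim in Cy3 to be tested. Of 18 tubulin-modifying enzymes 14 were expressed and 7 of 13 tested were called. *Ttl*, which adds tyrosine to alpha tubulin, lay between -0.19 and 0.21 and was not called (adjusted p = 0.0994), nor was *Ttll4* (adjusted p = 0.313), while *Ttll1* and *Ttll5* were.

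Promoters were read for 7 members from RefSeq (GRCm38.p6), the 250 bases before the start of each gene. *Tuba1a* is shown as a member with its 4 lowest values in mice 4 to 7, and *Tubb5* as one with its 4 highest values there. Capitals mark the motifs searched on either strand. These were a TATA box written as TATATAA or as TATAAA, the CCAAT box, the GC box GGGCGG, and the cores ACGTG and also GCGTG. The palindrome around the first core counts on both strands.
Tuba1a, chr15:98953502-98953751, minus strand: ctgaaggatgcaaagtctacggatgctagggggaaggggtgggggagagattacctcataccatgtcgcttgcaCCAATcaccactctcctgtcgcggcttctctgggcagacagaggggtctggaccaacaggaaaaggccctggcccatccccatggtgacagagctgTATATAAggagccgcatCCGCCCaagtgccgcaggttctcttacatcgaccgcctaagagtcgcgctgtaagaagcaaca
Tubb5, chr17:35838302-35838551, minus strand: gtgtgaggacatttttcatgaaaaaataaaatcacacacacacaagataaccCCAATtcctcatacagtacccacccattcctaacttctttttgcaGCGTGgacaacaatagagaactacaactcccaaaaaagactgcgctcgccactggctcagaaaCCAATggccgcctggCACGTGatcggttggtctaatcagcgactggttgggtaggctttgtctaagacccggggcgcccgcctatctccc

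*Tuba1a* held 1 TATATAA, found in 3.04% of 32851 promoters, with 1 CCAAT and 1 GGGCGG. Both ACGTG and also GCGTG are cores of sites bound by hypoxia-inducible factors, among others. *Tubb5* held ACGTG, as 16.6% of all promoters do. CCAAT stood in 4 of the 7 (33.9% of all) and GGGCGG in 5 (32.7%). The core GCGTG stood in *Tuba1b*, *Tuba4a* and *Tubb5* (28.2%), and TATAAA in *Tubb2a* (12.4%). These letters say nothing of which factor was bound in these mice.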

How the data were processed

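RNA of eWAT of 10 mice was measured on 10 two-colour arrays. The authors deposited scanner files with spot intensity values in both dyes, not normalized, and a log10 ratio after the software's own background subtraction and dye normalization (Agilent Feature Extraction 10.7.3.1). A deposited table held normalized values on a log2 scale, found from its values; its columns had an r of 0.993 to 0.999 with the log2 Cy5 signal. Mean signals were corrected with normexp (offset 50), normalized by loess within arrays and, for channel levels, by Aquantile (limma 3.58.1, R 4.3.3). Outlier spots were left out, and spots of a probe were averaged over 55681 probes. A gene's value was the mean of its expressed probes. Median Cy5 signals were 54.8 to 81.3 over a background of 32 to 37, and the number of arrays limits the precision. Replicates are separate mice by the labels. Probes with both dyes well above background on at least 5 arrays entered the Pitman-Morgan test (scipy). Both tests were checked on simulated data. Symbols of 12 list genes were matched through transcript accessions in the RefSeq table.

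The members and lists were chosen with earlier results of these data known. Genes named were all members, up to 4 expressed genes of each list in listed order, and the 6 genes closest to *Tuba1a*, besides genes singled out by the outlier search.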

Additional observations from a re-analysis of the deposited data

Results flagged for a closer look

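In a search for a mouse far from the other 9 (gap to the nearest mouse over the whole range, past Dixon's 95% critical value), 7 of 102 values passed: 10 members, 78 genes of the tubulin lists and 14 marker list means were searched, and chance passes about 5%. *Tubb3* in mouse 5 had a gap of 0.799 of its range. *Tuba8* was highest in mouse 10 (0.07, next -0.15, gap 0.480) and *Map1b* in mouse 2 (0.33, next 0.02, gap 0.469). Among marker lists, mouse 2 was highest for motile cilia (1.06, next -0.24, gap 0.699) and sperm (-0.81, next -1.63, gap 0.620), mouse 8 for neutrophils (0.72, next -0.02, gap 0.580) and mouse 3 for epididymis (0.76, next 0.33, gap 0.511). No cause was tested.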

How the results depend on the processing

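The count of member probes that varied more in Cy5 was 14. It was 7 without normalization between arrays, where the count over all probes was 4678 in place of 14972, and 10 with median centring. Leaving out 1 mouse at a time gave 12 to 14 member probes and 13506 to 14412 of all probes. With median centring the mean log2 ratio of some members moved by more than its SD. The new means were 0.58 for *Tuba1b*, 0.63 for *Tuba4a*, 0.73 for *Tubb2a*, 0.37 for *Tubb2b*, 0.51 for *Tubb5* and 0.38 for *Tubg1*. The median of all expressed probes moved from 0.003 to 0.324. The mean changed sign for 7 members, and no log2 SD ratio did. Under slide no probe was called with any setting. Normalization between arrays leaves log ratios as they are, and the deposited table gives differences between mice but no level against the pool. No paired analysis was possible because there is 1 group. The cause of these shifts was not tested.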
